A study of Saccharomyces cerevisiae with 5 samples.

Results

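The nuclear genome of budding yeast encodes most subunits of the machinery that carries electrons from NADH and succinate to oxygen and makes ATP in the inner mitochondrial membrane. Described here are 36 coding sequences (CDS) of this machinery, among the 6697 annotated CDS on which poly(A)+ RNAseq reads were counted. They were chosen by gene function and listed by systematic name. No value entered this rule, but earlier results of these data were known when they were chosen. They comprise 2 NADH dehydrogenases, 4 subunits of complex II (succinate dehydrogenase), 9 of complex III (the cytochrome bc1 complex), 2 cytochromes c, 9 subunits of complex IV (cytochrome c oxidase) and 10 of the ATP synthase. All 36 had at least 20 reads in a library, so none was lost to the minimum used below.

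The RNA came from BY4741, a haploid wild-type strain of the S288C background, grown to mid-log phase in YPD, a rich glucose medium. One library was made from cells given 1 mM CuSO4 for 4 hours, and 1 from cells given no CuSO4. Both are of the same strain, and copper was the one labelled difference between them. With 1 library per condition, no value has a replicate error, and an effect of copper and a difference of culture or library cannot be told apart. A list of γH2A peaks, taken as that of cells in YPD although the labels attach it to the ChIP samples of both conditions, was used for the position of replication fork stalling sites near the genes.

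Respiratory subunits form large complexes in which some are encoded in the nucleus and a few core subunits of complexes III and IV and of the ATP synthase in mitochondrial DNA. *S*. *cerevisiae* has no proton-pumping complex I and uses single-subunit NADH dehydrogenases instead. In glucose many of these genes are repressed. Their transcription is activated by the Hap complex (Hap2, Hap3, Hap4 and Hap5), which binds sequences with a CCAAT core, and by the haem-responsive factor Hap1, whose gene carries a Ty1 insertion in S288C strains. Complex IV holds copper at its catalytic and electron-entry sites, both in mitochondrially encoded subunits, and the copper is delivered by the chaperones Cox17, Sco1 and Cox11.

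The sequences below carry the Hap complex motif that many of the promoters shared. Within 250 bases before to 50 bases after the CDS start, read from the R64 genome, the core CCAAT was found on either strand at 30 of the 36 CDS (83.3%), against 43.3% of 6008 nuclear protein-coding genes. The longer form ACCAATNA, which contains CCAAT, was found on either strand at 14 of the 36 (38.9%), against 5.74% of all. The genome sequence is that of RefSeq. Each of its 15 matches is shown with up to 11 bases on either side, written 5′ to 3′ on the strand of the gene, with the match in capitals.
*RIP1*, chrV:107010-107030, plus strand: ggACCAATCAgcgttttgcgc
*QCR7*, chrIV:1496712-1496741, minus strand: atcttgttttgACCAATCAggagcgacgcg
*COX5B*, chrIX:155138-155167, plus strand: ttaaacaatagACCAATTAtttcaatttaa
*COX6*, chrVIII:209477-209506, plus strand: gaaaagggaccTAATTGGTccggtcaaagc
*COX8*, chrXII:910149-910178, minus strand: aaacggtttgcACCAATCAtacgagagaag
*COX12*, chrXII:225360-225389, minus strand: tcataacattgACCAATCAattttcagaaa
*COX13*, chrVII:144584-144613, plus strand: ttttttttcccACCAATGAgaggcggtact
*ATP3*, chrII:315368-315397, plus strand: cgtgatggagaACCAATGAgcggcgagtaa
*ATP4*, chrXVI:408916-408945, minus strand: atcaatattgaACCAATCAcgacgcttttt
*ATP7*, chrXI:408149-408178, minus strand: gtaaaagatacACCAATTAccacttgctgc
*ATP14*, chrXII:722553-722582, minus strand: gccatacacgaACCAATTAtgcatcataaa
*ATP17*, chrIV:1228370-1228399, plus strand: ttacggagagaACCAATCAtatcgaaggat
*NDI1*, chrXIII:30017-30046, minus strand: tattcattcggACCAATCAtatgaaggcat
*NDE1*, chrXIII:556560-556589, minus strand: tattctggtaaACCAATTAaagagagaaaa
*NDE1*, chrXIII:556467-556496, minus strand: ataaaaaattaACCAATAAtaatgattaga

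Of the 15 matches, 14 read ACCAATNA on the strand of the gene, and that of *COX6* is on the other strand. They began between 248 and 10 bases before the start, 13 of them more than 100 bases before it. *NDE1* held a pair of them. By complex, the longer motif was at 2 of 2 NADH dehydrogenases, 0 of 4 CDS of complex II, 2 of 9 of complex III, 0 of 2 cytochromes c, 5 of 9 of complex IV and 5 of 10 of the ATP synthase. A match describes these letters only and is not a measured binding site.
The Hap1 consensus, a spaced pair of CGG triplets, was at 1 of the 36 promoters, that of *QCR6*, against 0.133% of all promoters. The core ATTGTT of the motif of Rox1, a repressor of hypoxic genes, was at 15 (41.7%), against 35.2% of all. With a window of 500 bases before the start, CCAAT was at 33 of the 36 CDS and 62.4% of all genes, and ACCAATNA at 16 and 8.59%.

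**Figure D1:**
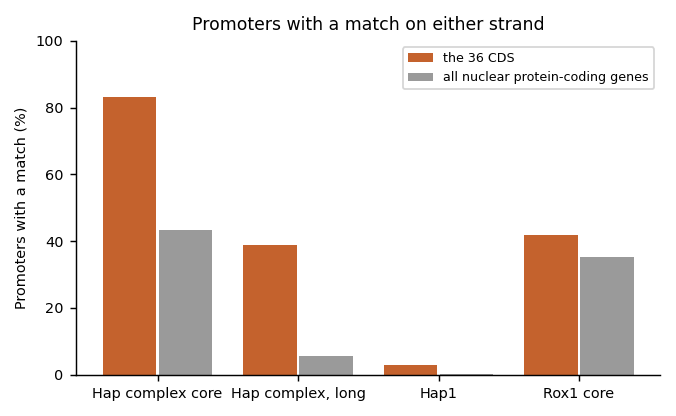
Promoters (250 bases before to 50 after the CDS start) with a match on either strand, as a percentage, for the 36 CDS (left bar of each pair) and for 6008 nuclear protein-coding genes (right bar). The labels stand for CCAAT (Hap complex core), ACCAATNA (Hap complex, long), the Hap1 consensus and ATTGTT (Rox1 core). The longer Hap complex form was at 38.9% of the 36 and at 5.74% of all.

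Upstream stretches of 6 members, 150 bases long and beginning 250 bases before the start, are shown because they belong to the isoform pairs and to the CDS with the largest differences described below. Capitals mark CCAAT or its reverse complement ATTGG.
*CYC1*, chrX:526085-526234, plus strand: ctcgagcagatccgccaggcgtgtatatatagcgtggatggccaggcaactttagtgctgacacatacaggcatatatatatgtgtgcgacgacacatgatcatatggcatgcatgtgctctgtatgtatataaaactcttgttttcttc
*CYC7*, chrV:80078-80227, minus strand: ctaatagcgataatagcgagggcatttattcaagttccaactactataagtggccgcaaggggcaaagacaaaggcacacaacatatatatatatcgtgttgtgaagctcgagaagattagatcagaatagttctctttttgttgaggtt
*COX5A*, chrXIV:531475-531624, plus strand: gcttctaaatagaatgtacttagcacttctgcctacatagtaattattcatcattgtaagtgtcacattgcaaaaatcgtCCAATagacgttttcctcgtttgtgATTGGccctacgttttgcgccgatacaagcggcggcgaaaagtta
*COX5B*, chrIX:154972-155121, plus strand: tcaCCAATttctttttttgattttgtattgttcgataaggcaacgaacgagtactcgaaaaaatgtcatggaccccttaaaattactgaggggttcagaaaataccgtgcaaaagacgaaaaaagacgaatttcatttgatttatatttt
*QCR8*, chrX:106184-106333, plus strand: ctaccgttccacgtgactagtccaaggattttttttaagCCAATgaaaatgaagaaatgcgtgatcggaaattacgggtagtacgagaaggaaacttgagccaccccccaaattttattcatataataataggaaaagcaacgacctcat
*QCR10*, chrVIII:107576-107725, plus strand: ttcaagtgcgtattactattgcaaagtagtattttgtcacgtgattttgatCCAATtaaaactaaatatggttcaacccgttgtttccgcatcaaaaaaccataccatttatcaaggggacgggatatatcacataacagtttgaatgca

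In these stretches *COX5A* held CCAAT 170 bases and ATTGG 145 bases before the start. *COX5B* held CCAAT at 247 bases, *QCR8* at 211 and *QCR10* at 199. Neither cytochrome c gene held the core in the stretch shown.

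The libraries had 5749810 reads on CDS with CuSO4 and 5572698 in YPD, and 125 and 131 CDS had no read. The copper label was borne out by known copper-responsive genes. The metallothionein CDS *CUP1-1* had 4042 reads with CuSO4 and 496 in YPD, and *CTR1*, the high-affinity copper transporter that Mac1 induces when copper is scarce, had 173 and 1554. Of the strain's deleted markers, *LEU2*, *URA3* and *MET17* had 0 reads in both libraries, which allows up to 3 reads each. *HIS3*, which is only partly deleted in this strain, had 309 and 291. The 7 **a**-specific genes of this mating type were all read. All 7 were higher with CuSO4, against 53.2% of all CDS with at least 20 reads, with a median change of 0.21 on the log2 scale. Of the 4 α-specific genes, *MF(ALPHA)1* had 0 reads in both libraries and *STE3* had 7 with CuSO4 and 11 in YPD. *MF(ALPHA)2* had 30 and 46 reads, and *SAG1* still had 207 and 190.

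Messenger RNA of the respiratory chain was well above the average gene in both conditions. The level used here is the deposited log2 value of reads per kb of CDS, both libraries scaled to the larger. The 36 CDS had a median level of 9.84 with CuSO4 and 9.60 in YPD, against medians of 7.84 and 7.82 over all CDS. Of the 36, 35 were above the median CDS with CuSO4 and 34 in YPD, and 29 and 26 were above the upper quartile of all CDS (levels of 9.02 and 8.98). Together they held 26400 reads with CuSO4 and 21967 in YPD. This was 0.459% of all reads on CDS with CuSO4 (95% Clopper-Pearson interval 0.454% to 0.465%) and 0.394% in YPD (0.389% to 0.399%). The order of the levels was nearly the same in both libraries (Spearman's rho 0.99 over the 36 CDS, which share their lengths and base composition between libraries).

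**Figure D2:**
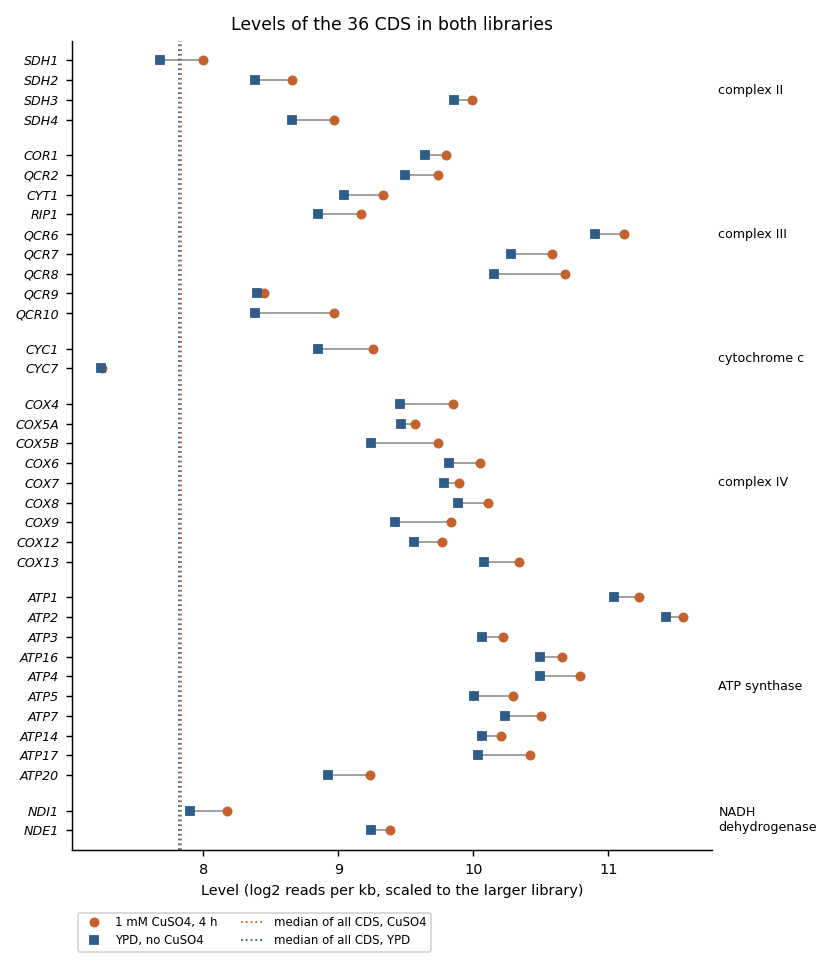
Level of each of the 36 CDS (log2 reads per kb, scaled to the larger library) with CuSO4 (circles) and in YPD without it (squares), 1 library each, grouped by complex. Dotted lines mark the medians of all CDS, 7.84 and 7.82. *ATP2* is highest and *CYC7* lowest in both libraries, and every circle lies at or to the right of its square.

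Among the 36 CDS, those of the α and β subunits of the catalytic F1 head of the ATP synthase had the highest levels per length in both libraries. *ATP2*, the β subunit that carries the catalytic sites, had a level of 11.55 with CuSO4 and 11.43 in YPD (ranks 334 and 354 of all CDS). *ATP1*, the α subunit, had 11.23 and 11.04. Each enzyme holds several copies of α and β and a single copy of the central stalk subunits γ and δ, whose CDS *ATP3* (10.22 and 10.06) and *ATP16* (10.65 and 10.49) had lower levels. *ATP15*, for the central stalk subunit ε and not among the 36, had 11.17 and 10.92, above both and near *ATP1*. Whether level follows copy number was not tested. The stator subunits *ATP4*, *ATP5*, *ATP7* and *ATP14* lay between 10.20 and 10.79 with CuSO4 and between 10.00 and 10.49 in YPD. The lowest of the 10 was *ATP20*, subunit g, which helps the enzyme to dimerise, at 9.24 and 8.92.

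Among the CDS chosen here, levels were most even within complex IV. Over its 9 CDS the SD of the level was 0.23 with CuSO4 and 0.27 in YPD, against 0.63 and 0.67 over the ATP synthase, 0.88 and 0.87 over complex III and 0.83 and 0.91 over complex II. These SDs are over genes and not over replicates, and the differences between them were not tested. *COX26*, a further subunit of complex IV that was not among the 9, had levels of 3.31 with CuSO4 and 3.95 in YPD. These came from 2 and 3 reads and lay far below the 9, so the evenness is that of the 9 only. The SDs also use annotated lengths with introns, which lowers *QCR9* and *QCR10* in complex III and *COX5B* in complex IV. No SD was computed per kb of coding sequence. The highest of the 9 was *COX13* (subunit VIa) at 10.34 and 10.08. The lowest of the 9 with CuSO4 was *COX5A* at 9.57, and the lowest of them in YPD was *COX5B* at 9.25. The annotated length of *COX5B* includes an intron. Per kb of coding sequence alone it had 9.99 and 9.50, and *COX9*, at 9.42, was then the lowest of the 9 in YPD.
In complex III, *QCR6*, the acidic hinge protein beside cytochrome c1, was highest at 11.11 with CuSO4 and 10.90 in YPD. *QCR9* had 8.45 and 8.40, and *QCR10* had 8.97 and 8.39, the lowest of the complex in YPD. Both contain an intron, which the annotated length includes and mature mRNA lacks. Per kb of coding sequence alone, their levels were 9.49 and 9.44 for *QCR9* and 9.31 and 8.73 for *QCR10*. In complex II, *SDH3*, which encodes a membrane anchor and also serves in protein import, was highest at 9.99 and 9.86, and *SDH1*, the flavoprotein that oxidises succinate, was the lowest of the complex in both libraries. *NDE1*, the NADH dehydrogenase that faces the intermembrane space, had a level of 9.38 and 9.24, and *NDI1*, which faces the matrix and stands in for complex I, had 8.17 and 7.90.

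The comparison of cells with and without CuSO4 asks how copper affected the mRNA of each gene. All 36 CDS were higher with CuSO4, by a small amount, whereas 53.2% of the 6078 CDS with at least 20 reads were higher and 46.8% lower. A change is the level with CuSO4 minus that in YPD, on the log2 scale. The median change of the 36 was 0.26 (95% order-statistic interval over the 36 genes 0.19 to 0.30), against 0.01 over all these CDS. This interval takes genes of the same libraries as independent draws, which they are not. It describes the spread over genes and covers no difference of culture or library. The change was 0.01 for *CYC7*, the smallest, and 0.58 for *QCR10*, the largest. Centring each library on its median CDS lowered all changes by the same small amount, which left 35 of 36 higher, *CYC7* being the exception. In bulk cultures, more mRNA per cell and more cells of a given state cannot be told apart.

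Counting error was measured with a 95% Clopper-Pearson interval on the ratio of the reads, which compares these libraries and not the conditions. It lay above 0 for 28 of the 36 CDS, against 11.6% of all CDS, and below 0 for none of the 36, against 10.1%. No test across replicates could be made, so no p-value stands behind these counts. Such an interval is narrower where reads are many, and the 36 were read more deeply than most CDS. Their median was 466 reads with CuSO4 and 368.5 in YPD, against 290 and 276 over all 6697 CDS. The 8 CDS whose interval included 0 were *SDH3*, *QCR9*, *CYC7*, *COX5A*, *COX7*, *COX8*, *COX12* and *ATP14*. Of the 36, 0 were at least 1.5-fold higher (2.40% of all CDS) and 0 at least 1.5-fold lower (1.53%), with *QCR10* just short of it. At 2-fold the counts were 0 higher (0.526% of all CDS) and 0 lower (0.658%). At a smaller threshold, a change of 0.322 (a ratio of 5 to 4), 7 of the 36 (19.4%) were higher, against 7.80% of all CDS, and 0 lower, against 4.43%. These were *QCR8*, *QCR10*, *CYC1*, *COX4*, *COX5B*, *COX9* and *ATP17*. Just inside this threshold was *ATP17* at 0.385, and just outside were *SDH1* at 0.320 and *RIP1* at 0.318.

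**Figure D3:**
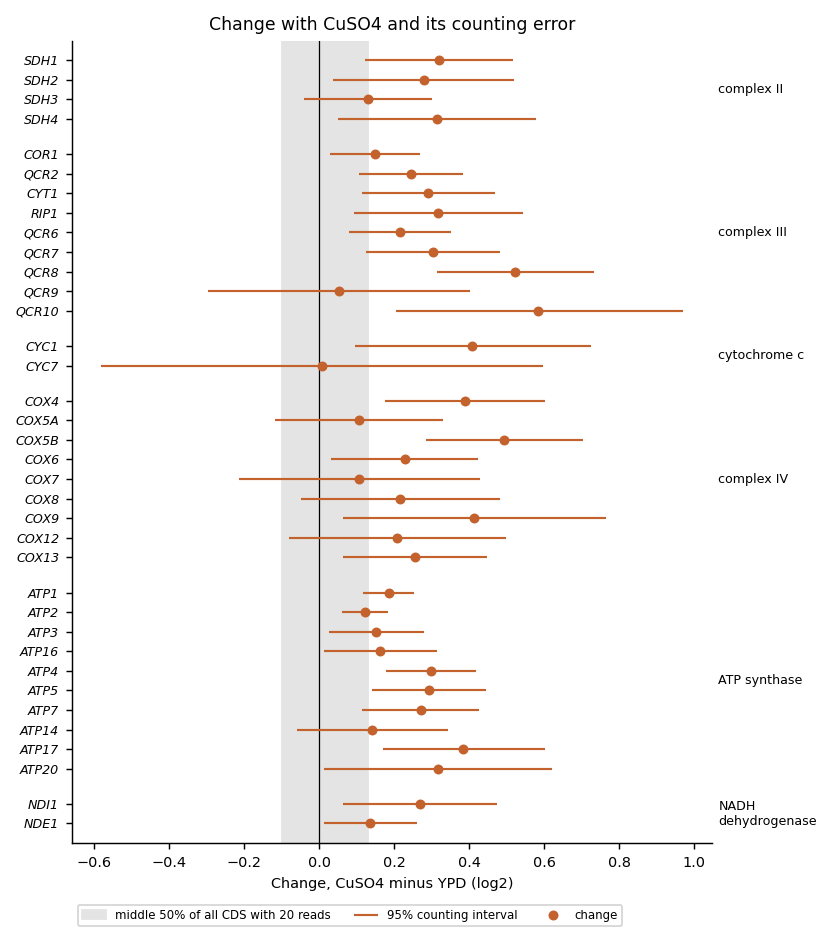
Change of each of the 36 CDS, CuSO4 minus YPD on the log2 scale (points), with its 95% counting interval (lines), grouped by complex. The grey band is the interquartile range of all CDS with at least 20 reads, from -0.10 to 0.13, and 30 of the 36 points lie above it.

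In the NADH dehydrogenases and complex II, where electrons enter the chain, all 6 CDS were higher with CuSO4. *NDI1* (YML120C) had 445 reads with CuSO4 and 357 in YPD, a change of 0.27 (interval 0.06 to 0.47), and *NDE1* (YMR145C) had 1121 and 985 reads, a change of 0.14 (0.01 to 0.26). *SDH1* (YKL148C) had 491 and 380 reads, a change of 0.32 (0.12 to 0.52). The other electron-carrying subunit, the iron-sulfur protein *SDH2* (YLL041C), had 324 and 258 reads and changed by 0.28 (0.04 to 0.52). Of the membrane anchors, *SDH4* changed by 0.31 (274 and 213 reads) and *SDH3* by 0.13 (606 and 535 reads). The median over the 4 CDS of complex II was 0.30, and all 4 were higher with CuSO4.

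Complex III passes electrons from ubiquinol to cytochrome c and held both of the largest differences. *QCR10* (YHR001W-A, chromosome VIII from 107826 to 108122, plus strand), a small subunit at the edge of the complex, had 149 reads with CuSO4 and 96 in YPD, a change of 0.58 (interval 0.20 to 0.97). *QCR8* (YJL166W, chromosome X from 106434 to 106718, plus strand) had 467 and 314 reads, a change of 0.52 (0.31 to 0.73). Among the catalytic subunits, the Rieske iron-sulfur protein *RIP1* (YEL024W) had 373 and 289 reads (0.32, interval 0.09 to 0.54), and cytochrome c1, encoded by *CYT1* (YOR065W), had 599 and 473 reads (0.29, interval 0.11 to 0.47). The core proteins lie on the matrix side and are related to processing peptidases. Of these, *COR1* (YBL045C) had 1221 and 1063 reads, a change of 0.15 (0.03 to 0.27), and *QCR2* (YPR191W) had 945 and 770 reads, a change of 0.25 (0.11 to 0.38). *QCR6* changed by 0.22 and *QCR7* by 0.30. *QCR9* (YGR183C) was the lowest, with 145 and 135 reads and an interval of -0.29 to 0.40 on its change of 0.05. The median over the 9 was 0.29.

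Complex IV, the copper enzyme of the chain, had changes within the range of the other complexes. The 9 of its nuclear-encoded subunits chosen here had a median change of 0.23, with 5 intervals above 0. None of these subunits binds the catalytic copper. *COX4* (YGL187C), which binds zinc, had 431 reads with CuSO4 and 318 in YPD, a change of 0.39 (0.18 to 0.60), and the small membrane subunit *COX9* (YDL067C) had 164 and 119 reads, a change of 0.41 (0.06 to 0.77). Changes of *COX6* (474 and 391 reads), *COX8* (261 and 217), *COX12* (220 and 184) and *COX13* (504 and 408) lay between 0.21 and 0.26. *COX7* had 174 and 156 reads, a change of 0.11 (-0.21 to 0.43). Summed over the 9 CDS, complex IV had 3044 and 2427 reads, a change of 0.28 (0.20 to 0.35).

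The 10 CDS of the ATP synthase carried most of the reads of the 36 CDS. Together they had 14370 reads with CuSO4 and 12196 in YPD, a change of 0.19 (0.15 to 0.22), and 9 of their 10 intervals lay above 0. The deeply read *ATP1* (YBL099W) had 3930 and 3339 reads, a change of 0.19 (0.12 to 0.25), and *ATP2* (YJR121W) had 4610 and 4092, a change of 0.12 (0.06 to 0.18). These intervals are the narrowest of the 36. The stator CDS *ATP4* (1302 and 1023 reads), *ATP5* (803 and 633) and *ATP7* (762 and 610) changed by 0.30, 0.29 and 0.27. *ATP17* (YDR377W), subunit f of the membrane part, had the largest change of the enzyme at 0.38 (0.17 to 0.60), with 419 and 310 reads. The others were *ATP3* (1114 and 968 reads), *ATP16* (778 and 671), *ATP14* (442 and 387) and *ATP20* (210 and 163), with changes of 0.15, 0.16, 0.14 and 0.32.

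CDS length moved with the change in these libraries, and most of the 36 CDS are short. Their median length was 475.5 bp, against 1086 bp over all CDS. Over all CDS with at least 20 reads, the median change was 0.12 for those up to 300 bp, 0.06 up to 600 bp, 0.05 up to 1000 bp, 0.02 up to 1500 bp, -0.01 up to 2000 bp and -0.05 for longer ones. The members in the same bands had medians of 0.31 (n = 6), 0.26 (n = 17), 0.29 (n = 6), 0.20 (n = 2) and 0.19 (n = 5). Set against the median of its own length band, 33 of the 36 changes stayed above 0, with a median of 0.22, and the exceptions were *QCR9*, *CYC7* and *COX7*. Set against CDS of like length and like level together, 34 did, all but *QCR9* and *CYC7*. Both were chosen after the data were seen, and the part of length in the remaining difference was not tested.

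**Figure D4:**
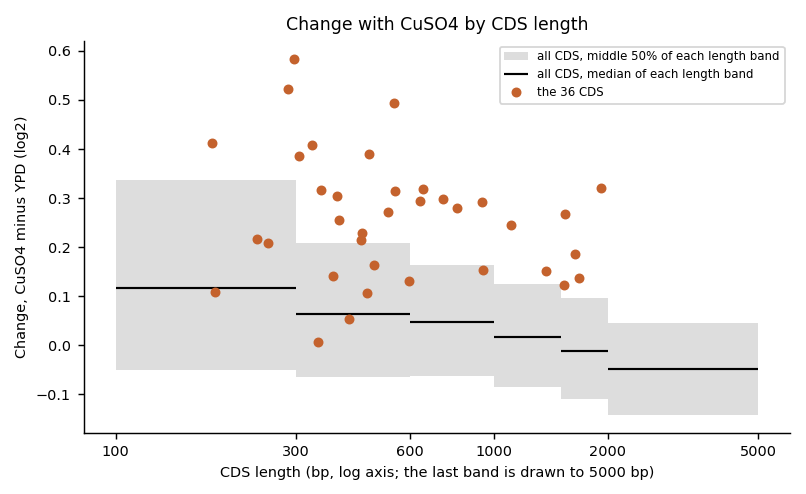
Change with CuSO4 (log2, CuSO4 minus YPD) against CDS length (bp, log axis). Points are the 36 CDS. Black lines and grey boxes are the median and the interquartile range of all CDS with at least 20 reads in each length band. The band medians run from 0.12 in the shortest CDS to -0.05 in the longest, and the 5 members between 1500 and 2000 bp, with a median of 0.19, lie above their band's box.

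Both pairs of oxygen-dependent isoforms were read in both conditions. *COX5A* and *COX5B* encode alternative forms of subunit V of complex IV, of which the first is the aerobic form and the second the hypoxic form, repressed by Rox1 when oxygen and haem are present. The aerobic form, *COX5A* (YNL052W, chromosome XIV from 531725 to 532186, plus strand), had 351 reads with CuSO4 and 315 in YPD, a change of 0.11 (-0.12 to 0.33). The hypoxic form, *COX5B* (YIL111W, chromosome IX from 155222 to 155765, plus strand), had 465 and 319 reads, a change of 0.49 (0.29 to 0.70). Per kb, *COX5B* made up 52.9% of the pair with CuSO4 (interval 49.4% to 56.4%) and 46.2% in YPD (42.3% to 50.2%). *COX5B* has an intron, and per kb of coding sequence the shares were 57.3% and 50.6%. The intervals of the shares overlap, but this does not show that the shift lies within counting error, and the shift itself was not tested. No 50 bp of either CDS recur elsewhere in the genome at 95% identity.
The cytochromes c, the soluble carriers between complexes III and IV, were less balanced. *CYC1*, the main aerobic isoform (YJR048W, chromosome X from 526335 to 526664, plus strand), had 202 reads with CuSO4 and 147 in YPD, a change of 0.41 (0.10 to 0.73). *CYC7*, the hypoxic isoform (YEL039C, chromosome V from 79636 to 79977, minus strand), had 52 and 50 reads, a change of 0.01 (-0.58 to 0.60). Per kb, *CYC7* made up 19.9% of the pair with CuSO4 (15.2% to 25.3%) and 24.7% in YPD (18.9% to 31.3%). These intervals overlap too, and this shift was not tested either. All of these intervals cover counting error only.

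The other genes of the pathway, taken from lists by function, followed the structural subunits only in part. Of 6 further subunits, 5 had at least 20 reads and 4 were higher with CuSO4, against 53.2% of all CDS with as many reads. *TIM11* (subunit e of the ATP synthase) changed by 0.29, *ATP15* (subunit ε) by 0.25 and *ATP18* by 0.11, while *ATP19* changed by -0.10. *NDE2*, the second external NADH dehydrogenase, had 43 and 30 reads, and *COX26* had 2 and 3 reads, too few for a change. The 3 CDS for paralogues of complex II subunits, *YJL045W*, *SHH3* and *SHH4*, had between 28 and 55 reads with CuSO4 and between 27 and 64 in YPD, and changes of 0.00, -0.27 and -0.02.

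The genes that restrain the ATP synthase had larger changes than its subunits. *INH1*, which encodes the inhibitor that blocks ATP hydrolysis when the membrane potential collapses, had 163 reads with CuSO4 and 102 in YPD, a change of 0.63 (0.26 to 1.00). *STF1*, a related inhibitor, had 248 and 173 reads, a change of 0.47 (0.18 to 0.76). *STF2*, which is listed with them as a stabilising factor and is also known from desiccation tolerance, had 571 and 354 reads, a change of 0.64 (0.45 to 0.84). Of the lists for other genes of the pathway, only this one held CDS past 1.5-fold, namely *INH1* and *STF2*. All 3 CDS are short, from 255 to 261 bp.

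The assembly factors were described complex by complex. Over all CDS with at least 20 reads, 53.2% were higher and 46.8% lower, and no list was tested against these shares. Of 24 CDS for the assembly of complex IV, 15 were higher and 9 lower with CuSO4, with a median change of 0.09. *COX17*, the chaperone that brings copper to complex IV, had 203 and 131 reads, the largest change of the list at 0.58 (0.26 to 0.91). *COX19*, a small copper-binding protein that works with Cox11, had 60 and 86 reads, the lowest at -0.57 (-1.07 to -0.08). *SCO1*, *SCO2* and *COX11*, which act after Cox17 or are related to such proteins, changed by 0.21, 0.35 and -0.11. Complex III assembly factors had a median of 0.18 (9 of 12 higher), those of the ATP synthase 0.10 (10 of 11 higher) and those of complex II 0.27 (3 of 3 higher). The lowest and highest of these were *CBP1* (-0.19) and *CYT2* (0.37) for complex III, *NCA3* (-0.04) and *ATP10* (0.53) for the ATP synthase and *SDH7* (0.08) and *SDH6* (0.39) for complex II.

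The regulators gave no uniform picture at the mRNA level. *HAP4*, the activating subunit whose amount limits the Hap complex in glucose, had 445 reads with CuSO4 and 384 in YPD, a change of 0.16 (-0.04 to 0.36). *HAP3* had 115 and 82 reads (0.44, interval 0.02 to 0.86), and *HAP2* had 88 and 107 (-0.33, interval -0.76 to 0.09). *HAP1* had 1547 and 1593 reads (-0.09) and *ROX1* 492 and 500 (-0.07). The corepressor genes *TUP1* and *CYC8* were both slightly lower, by -0.18 (-0.28 to -0.08) and -0.21 (-0.33 to -0.10). Over the 9 regulators, 3 were higher and 6 lower, with a median of -0.09, against 53.2% and 46.8% of all CDS with at least 20 reads. *HAP1*, *TUP1* and *CYC8* are longer than 2000 bp, and of all such CDS 35.5% were higher. The part of length in the changes of the regulators was not tested.
The mitochondrially encoded partners of the 36 subunits could not be compared. All 7 (*COX1*, *COX2*, *COX3*, *COB*, *ATP6*, *ATP8* and *OLI1*) stood at 0 reads in both libraries, as did all 28 mitochondrial CDS in the table. Whether reads on mitochondrial DNA were mapped and counted is not given in the sources used here, so these zeros set no limit on the level of the mRNAs.

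**Figure D5:**
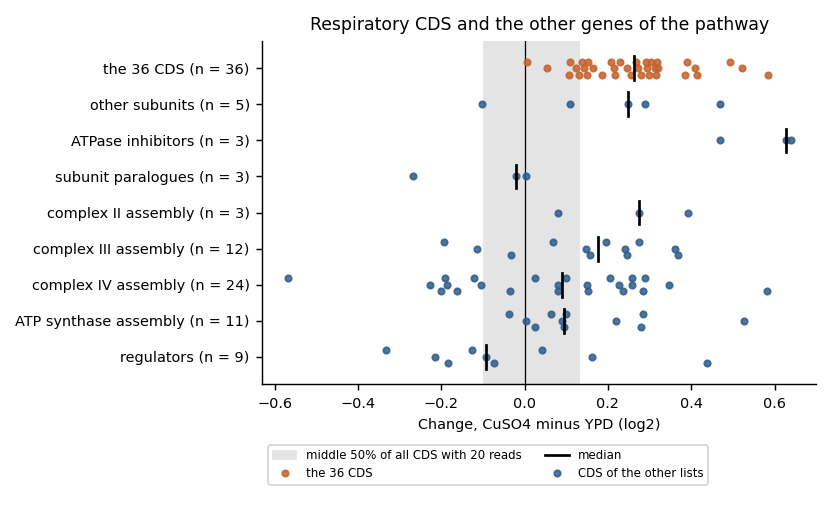
Change with CuSO4 (log2, CuSO4 minus YPD) of the 36 CDS (top row) and of the other genes of the pathway with at least 20 reads, 1 point per CDS and 1 row per list, with the median of each as a black bar. The grey band is the interquartile range of all CDS. Medians are 0.26 for the 36 CDS, 0.63 for the 3 ATPase inhibitor CDS and -0.09 for the 9 regulators.

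The study marks genes with a γH2A peak within 1 kb upstream, since phosphorylated H2A accumulates where replication forks stall. None of the 36 CDS had at least 1 bp of a peak in the 1000 bp upstream of its start, in the list of 240 peaks, taken as that of cells in YPD. Over all 6697 CDS the share was 6.64%. A count of 0 of 36 allows a share of up to 8.33%, so a lower share than in the genome was not detectable with 36 genes. With a window of 2000 bp the count was also 0, against 7.75% of all CDS. The nearest peak to a start was 1438 bp from that of *ATP3*, on the far side of the gene, at 2.81-fold enrichment over the control level. *COX6* (chromosome VIII from 209705 to 210151) lies beside the *CUP1* array, and the peak upstream of *CUP1-1* begins 3256 bp from the start of *COX6*. Of the 36, 8 (22.2%) had a peak within 10000 bp of the start, close to the 23.8% of all CDS. The members lie on 14 chromosomes, the closest to an end being *QCR2* at 27579 bp.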

How the data were processed

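Poly(A)+ RNAseq of cells with and without CuSO4 (1 library each) and 1 list of γH2A peaks were used. The authors mapped RNA reads to R64-2-1 with HISAT2 2.0.5 and counted them per CDS in SeqMonk. The deposited values are log2 reads per kb of annotated CDS, introns included, scaled to the larger library, with a CDS without reads at 0.9 reads. They had not been set to a common median. Use of strand in counting is not given in the sources used here. Undoing length and scale (1 with CuSO4, 1.04 in YPD) gave whole reads, to within 0.05, for over 99.9% of values above the floor (99.98% and 99.94%). Peaks came from Bowtie2 2.2.5 and MACS2. The deposited pileup (a signal), -log10 p-value and fold enrichment were not reprocessed. Only the enrichment and the positions were used. Peaks of at least 2-fold enrichment were kept by the authors, who removed artefacts by hand. The labels attach the peak list to the γH2A samples with and without CuSO4 and to the input, its columns name none of them, and it was taken as that of cells in YPD after the study's legend.

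Changes were taken between the log2 values as deposited. Counting intervals are 95% Clopper-Pearson on recovered reads (SciPy 1.17.1), and were tested on simulated data. A CDS was counted when its higher library had 20 reads or more. With 1 library per condition no p-value was computed. The design named a promoter table, and the same windows were read from the RefSeq R64 genome instead. All 36 members have the same coordinates there, and repeats were searched with BLAST+ 2.17.0. Members and lists were chosen with earlier results of these data known. All members could be named. Of the other lists, those named are CDS past 1.5-fold, the largest rise and fall, and *HAP1*, *HAP4* and *ROX1*, and others were named after their values were seen. Alternatives were other scalings, minimum reads, thresholds, lengths, windows and member lists.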

Additional observations from a re-analysis of the deposited data

How the results depend on the processing

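No paired analysis was possible because there was 1 library per condition, and for the same reason no library could be left out. Among 112 alternative values of the summary results, 105 differed little (counts by under 1.5 times, other values by less than their interval), and none changed sign. Many of the 105 could not move, because the alternative left their CDS and reads as they were, so their number does not measure stability. Among these 105, the median of the cytochromes c moved most, to 0.41 at a minimum of 100 reads, against 0.21, since only *CYC1* then remained and the interval was the range of its 2 CDS. The other values follow from how the alternative is built. At a threshold of 0.322 on the log2 scale, 7 CDS were higher in place of 0 at 1.5-fold. Without division by length, the median level of the 36 CDS was 8.86 with CuSO4 and 8.57 in YPD. The share of *COX5B* in its pair was 57.0% with CuSO4 and 50.3% in YPD in plain reads, and 57.3% and 50.6% per kb of coding sequence. The median change of the 36 CDS was 0.25 with each library centred on its median, 0.26 without the 10 CDS with most reads in the scaling, and 0.22 against CDS of like length, an alternative added after the data were seen. Over the 36 single changes, 144 of 144 alternative values stayed within the counting interval. This count does not measure stability either, because the alternatives could hardly move a single change out of its interval. Dropping the minimum left every change as it was, since all 36 CDS had passed it. The other scalings shifted all changes by the same small amount, and the remaining alternative also moved them little beside the width of their intervals. Depth limits *CYC7*, *QCR10* and *COX9* most, whose intervals are the widest of the 36.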

Other observations

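A pair of the 36 CDS share bases with another annotated CDS. *YBL100C* lies on the other strand, overlaps *ATP1* by 251 bp and had 606 reads with CuSO4 and 604 in YPD, a log2 change of -0.04 (-0.21 to 0.12), beside 0.19 for *ATP1*. Its level per kb, 10.91 and 10.95, was below that of *ATP1* by 0.32 with CuSO4 and by 0.09 in YPD. *YLR294C* lies on the same strand as *ATP14*, overlaps it by 32 bp and had 368 and 291 reads, a change of 0.29 (0.06 to 0.52). Without a stated use of strand in counting, reads of *ATP1* and *YBL100C* in the shared stretch cannot be told apart. With both *ATP1* and *ATP14* left out, the median change of the other 34 CDS was 0.27.

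The changes were also set out by promoter motif. The median log2 change was 0.26 for the 14 CDS with ACCAATNA and 0.26 for the others, and 0.26 for the 30 CDS with CCAAT and 0.24 for the others. With 500 bases before the start, the order for CCAAT was reversed, at 0.25 for the 33 CDS with it and 0.39 for the others. Few of the 36 lack CCAAT in either window, and no difference was tested. Over the 36 CDS, which share their libraries, Spearman's rho of the change was -0.17 with length and -0.19 with the level in YPD.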
